A study of Homo sapiens with 12 samples.

Results

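SKOV3 cells that carried *SIVA-WT* or *SIVA-D160N* were compared with SKOV3 cells of the empty vector control (EV), and the genes that moved the same way in both transfectants were described. A gene was kept when it had at least 50 counts in 1 of the 3 SKOV3 libraries, and it was taken as a shared-change gene when both transfectants differed from EV by at least 2-fold in the same direction. Of 57187 genes with deposited counts, 13361 passed the count filter, and 361 of these were shared-change genes (2.70%). SIVA, encoded by *SIVA1*, is a cytoplasmic protein known as an inducer of apoptosis that binds the tail of the TNF receptor family member CD27. SKOV3 is an ovarian cancer line known for high ERBB2 (HER2). The study asked how wild-type SIVA and a D160N substitution of it change cancer cells.

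The 3 SKOV3 libraries were EV cells, cells transfected with *SIVA-WT* and cells transfected with *SIVA-D160N*, 1 library each, all cultured in RPMI medium with fetal bovine serum. The transfectants were stable polyclonal pools, for which the study reports selection with hygromycin. The transfected plasmid was linearized, and in it a CMV promoter drives *SIVA* followed by an IRES and GFP. The study's name for this vector includes puromycin, a different selection agent. The sample labels call the control cells parental and without treatment, whereas the study's supplement names them both parental and EV, and they are called EV here. For comparison the same 3 conditions were used from OVCAR8, a second ovarian line, and from the breast cancer lines MDA-MB-231 and HCC1954, again with 1 library each. The SKOV3 libraries held 35791455 (EV), 43898026 (*SIVA-WT*) and 40672701 (*SIVA-D160N*) counts, and mitochondrial genes took 3.61% to 4.32% of them. Across 17166 genes the SKOV3 libraries correlated with each other at 0.985 to 0.994 and with libraries of other lines at 0.769 to 0.82, and no pair held identical counts. With 1 library per condition no ratio within SKOV3 has a replicate check, and no p-value is given for one. Both ratios also share the single EV library, so a gene that was unusual in that library alone would appear as changed in both transfectants.

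The line's markers matched its label. *PAX8*, the transcription factor of Müllerian epithelium, had 8682, 10838 and 9882 counts in EV, *SIVA-WT* and *SIVA-D160N*, the order used for all counts that follow. *ERBB2* had 459499, 395382 and 242180 counts, and *KRT8* and *KRT18* were present in all 3 libraries. Of 13 ovarian epithelial markers 9 passed the count filter, and none was a shared-change gene. *CDH1* (7, 6 and 20 counts), *EPCAM* (29, 16 and 17) and *KRT19* (45, 40 and 36) were among the 4 markers that did not pass. Markers of blood cells (*PTPRC*, *CD3E*) had 0 counts in all 3 libraries, and those of endothelium (*PECAM1*, *VWF*, *CDH5*) had at most 4. Among fibroblast markers *DCN*, *LUM* and *PDGFRA* stayed at or under 28 counts, while *COL1A1* and *COL1A2* were high in the transfectants, as described below.

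*SIVA1* (ENSG00000184990, chromosome 14 of GRCh38, 104753147 to 104759654) had 1985 counts in EV, 4741 in *SIVA-WT* and 4542 in *SIVA-D160N*. Scaled for library size these were 51.6, 106.0 and 110.0 CPM (counts relative to library size), a log2 ratio to EV of 1.04 (95% counting interval 0.96 to 1.11) in *SIVA-WT* and of 1.10 (1.02 to 1.17) in *SIVA-D160N*. The log2 ratio is the difference of log2 CPM after a prior count of 2 was added, and the counting interval is an exact Clopper-Pearson interval that covers counting error only. Transfectants thus had about 2.05 and 2.14 times the *SIVA1* signal of EV, and they differed from each other by 0.06 on the log2 scale (0.00 to 0.12). The gene counts pool transcripts of the vector and of the cell's own gene, and they do not separate the wild-type from the mutant sequence. *SIVA1* lay near the threshold. With scaling by total counts alone the log2 ratio was 0.96 in *SIVA-WT*, which is less than 2-fold, and 1.01 in *SIVA-D160N*. The same ratios were 1.51 and 1.27 in MDA-MB-231 and 1.41 and 1.28 in OVCAR8. In HCC1954 *SIVA1* had 0 counts in EV, which allows up to 0.0694 CPM, against 1646 and 930 in the transfectants.

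Within SKOV3, 145 genes were at least 2-fold higher in both transfectants (1.09% of the genes that passed the filter) and 216 were at least 2-fold lower (1.62%). No gene was 2-fold higher in one transfectant and 2-fold lower in the other. The libraries were made from bulk RNA of polyclonal pools, in which a change in every cell and a change in the share of cells that express a gene cannot be told apart. Taken alone, *SIVA-WT* had 168 higher and 265 lower genes, and *SIVA-D160N* had 268 higher and 486 lower genes. The shared-change genes therefore made up most of the *SIVA-WT* list (23 higher and 49 lower genes were outside it), whereas 123 higher and 270 lower genes passed in *SIVA-D160N* alone. The median log2 ratio of the higher genes was 1.51 in *SIVA-WT* and 1.97 in *SIVA-D160N*, and that of the lower genes was -1.33 and -1.59, beside 0.04 and 0.03 over all genes. The smaller of the 2 ratios was at least 4-fold for 38 higher and 23 lower genes. The genes had modest counts: the library with the most counts had a median of 251 for the higher and 174.5 for the lower genes, against 1275 over all genes. Both counting intervals lay wholly beyond 2-fold for 86 higher and 92 lower genes, so for the others the counts themselves do not place both ratios past the threshold.

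**Figure D1:**
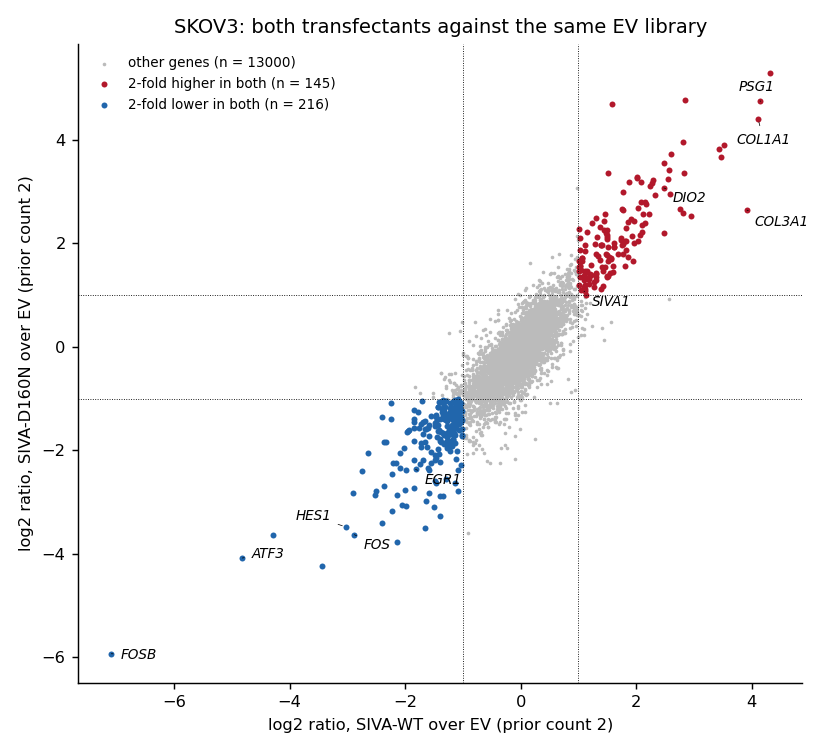
Log2 ratio of *SIVA-WT* to EV (x axis) and of *SIVA-D160N* to EV (y axis) for each of the 13361 genes that passed the count filter in SKOV3, from 1 library per condition. The 145 shared higher genes (red) and the 216 shared lower genes (blue) lie beyond the dotted 2-fold lines, *FOSB* lies furthest to the lower left, and no gene lies in the 2 corners of opposite direction. Both axes use the same EV library, which by itself draws points along the diagonal.

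The threshold cut through a continuous range. Just inside it were *TRIM6* (smaller log2 ratio 1.005), *SLC12A3* (1.006) and *GDF6* (1.008) on the higher side and *CALHM3* (-1.007), *CDKN1A* (-1.009) and *MALL* (-1.010) on the lower side. Just outside were *KIF26B* (0.994) and *AP1M2* (0.992), and *DSCAML1* (-0.999) and *CLMN* (-0.998). Within 0.1 of the threshold 21 higher genes were inside and 23 outside, and 40 lower genes were inside and 49 outside. Names could be matched in RefSeq for 137 higher and 184 lower genes, of which 123 and 160 are protein coding. The full set that passed the filter had 12699 matched names and 11672 protein coding genes.

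*SIVA-D160N* lay further from EV than *SIVA-WT* for 123 of the 145 higher genes and for 154 of the 216 lower genes. Over all genes that passed the filter it also had more genes past 2-fold, 268 higher and 486 lower against 168 and 265 in *SIVA-WT*. Whether the larger distance is particular to the shared-change genes was not tested. Only 40 shared-change genes were 2-fold or more apart between the transfectants, and 36 of them moved further from EV in *SIVA-D160N* (17 higher and 19 lower). *MMP1*, the interstitial collagenase, had 56385, 30798 and 8727 counts, so that its log2 ratio was -1.09 in *SIVA-WT* and -2.79 in *SIVA-D160N*, and the 2 transfectants differed by -1.70. *ETV1*, an ETS factor downstream of ERK, had 607, 334 and 123 counts, a difference of -1.30 between transfectants, and *PPP1R1B* had 1691, 632 and 228 (-1.34). Both genes were intermediate in *SIVA-WT*. On the higher side *THBS1*, the matrix glycoprotein thrombospondin-1, had 16875, 46354 and 95387 counts and was 1.16 higher in *SIVA-D160N* than in *SIVA-WT* on the log2 scale, and *KRT17*, a basal keratin, had 290, 1153 and 2475 (1.22). In the opposite direction, *COL3A1* (24, 454 and 171 counts) was the 1 higher gene with less expression in *SIVA-D160N* (-1.28), and *FOSB*, *SHISA2* and *CYP1B1* were the 3 lower genes with more of it (1.16, 1.15 and 1.03). Over all genes that passed the filter 41 were 2-fold higher and 86 were 2-fold lower in *SIVA-D160N* than in *SIVA-WT*. One library stands behind each of these values.

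The 15 genes furthest from EV in each direction, ranked by the smaller of their 2 ratios among genes with a symbol and at least 200 counts in 1 library, came from different kinds of genes. On the lower side 5 of them were transcription factors of the immediate early response (*FOSB*, *ATF3*, *EGR3*, *FOS*, *EGR1*) and another was *HES1*, a repressor induced by Notch. On the higher side were 3 pregnancy-specific glycoprotein genes (*PSG1*, *PSG5*, *PSG4*), the fibrillar collagens *COL1A1* and *COL3A1*, the imprinted non-coding RNA *H19*, the chaperone *CRYAB* and the thyroid hormone activating enzyme *DIO2*. In these 30 genes both transfectants lay on the same side of EV, which the rule fixes.

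**Figure D2:**
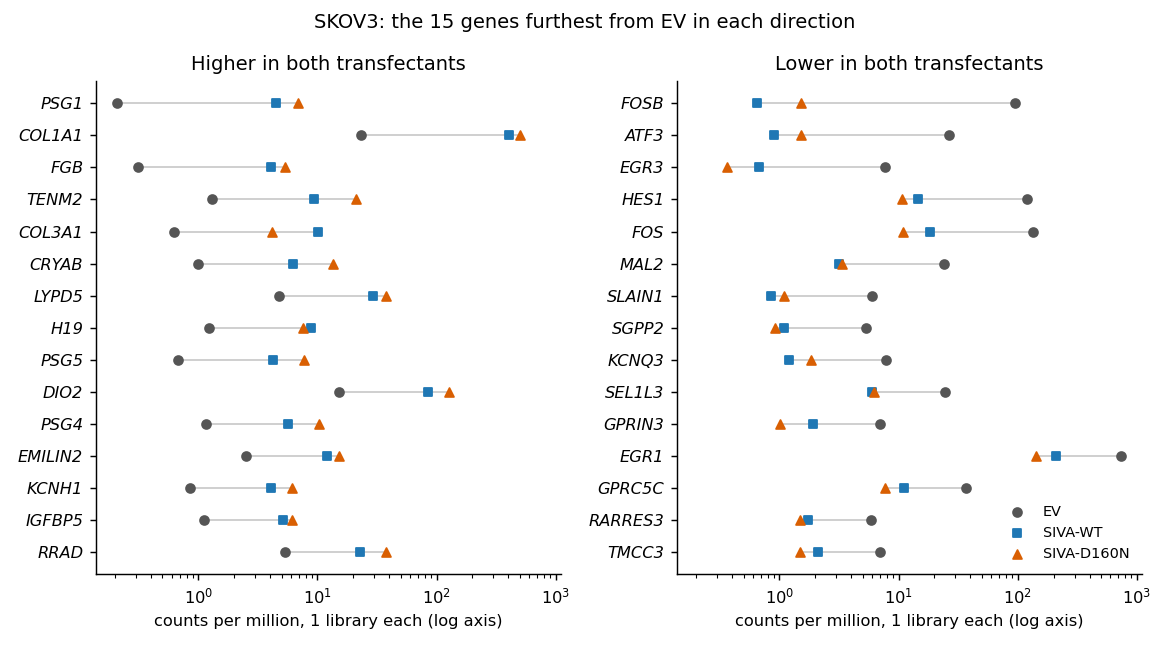
CPM on a log axis in EV (circle), *SIVA-WT* (square) and *SIVA-D160N* (triangle) of SKOV3, 1 library each, for the 15 higher (left) and 15 lower (right) genes furthest from EV. The square and the triangle lie on the same side of the circle in each row, as the rule requires, and *FOSB* has the widest gap (95.1, 0.647 and 1.51 CPM).

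Immediate early genes are transcribed within minutes of a growth factor or stress signal, through the ERK pathway and serum response factor among others, and without new protein synthesis. Their products include the FOS and JUN subunits of AP-1, the EGR zinc finger factors, and the DUSP phosphatases that switch MAP kinases off again. Of 30 AP-1 and ERK output genes, all of which passed the count filter, 10 were 2-fold lower in both transfectants and 0 were 2-fold higher, beside 1.62% and 1.09% over all genes. Their median log2 ratio was -0.70 in *SIVA-WT* and -1.34 in *SIVA-D160N*. This list, like the others, was chosen with earlier results of these data known. A wider list of immediate early genes, drawn up after the values had been seen, had 14 lower and 0 higher genes among 35, with medians of -0.66 and -0.68.

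Among the AP-1 subunits *FOSB* had 3661 counts in EV, 29 in *SIVA-WT* and 62 in *SIVA-D160N*, log2 ratios of -7.09 (-7.78 to -6.67) and -5.93 (-6.37 to -5.62). *FOS* had 5164, 814 and 445 counts (-2.88 and -3.63), and *ATF3*, a stress-induced member of the same superfamily, had 1024, 40 and 63 (-4.82 and -4.08). That both transfectants lie below EV for each of these genes follows from the rule that chose them. The JUN subunits did not share this. *JUN* had log2 ratios of -0.01 and 0.30, *JUNB* of -0.23 and -0.43 and *JUND* of -0.23 and -0.21, none of them 2-fold. *FOSL2*, another FOS family gene, lay in the other direction with 3836, 7747 and 10039 counts (0.79 and 1.29).

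The EGR factors were lower together. *EGR1* had 28451, 9370 and 5878 counts (-1.82 and -2.37), *EGR2* had 88, 32 and 17 (-1.61 and -2.34) and *EGR3* had 298, 30 and 15 (-3.44 and -4.23). All 3 were lower in *SIVA-D160N* than in *SIVA-WT*, although *EGR2* and *EGR3* rest on few counts in the transfectants. Of the phosphatases that dephosphorylate MAP kinases, *DUSP1* had 6846, 2447 and 2684 counts (-1.70 and -1.45), *DUSP5* 2509, 1122 and 859 (-1.38 and -1.64) and *DUSP6* 930, 386 and 232 (-1.48 and -2.09). *DUSP4* (-1.01 and -0.87) missed the rule by a little in *SIVA-D160N*. The other ERK feedback genes were lower mainly in *SIVA-D160N*: *SPRY4* had ratios of -0.98 and -1.76, *SPRY2* -0.85 and -1.42, *ETV4* -0.83 and -1.83, *ETV5* -0.72 and -1.59 and *PHLDA1* -0.68 and -1.33. *CCND1*, the cyclin D1 gene, had ratios of -0.57 and -0.60, and *MYC* -0.66 and -0.30.

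Further immediate early genes among the shared lower genes were the nuclear receptor *NR4A1* (409, 120 and 139 counts), the Krüppel-like factors *KLF4* (551, 209 and 197) and *KLF2* (481, 263 and 254), the small MAF factor *MAFF* (671, 288 and 232), the kinase *PIM1* (649, 325 and 307) and *PPP1R15A*, which directs dephosphorylation of eIF2alpha (2782, 1266 and 1239). In *PPP1R15A*, *KLF2*, *KLF4* and *PIM1* the transfectants were close to each other, with a difference of at most 0.09 between them on the log2 scale. *IER2*, *IER3*, *IER5*, *SRF* and *ZFP36L1* were within 2-fold of EV in both transfectants.

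The serum response factor binds the CArG box, and CREB and ATF proteins bind the letters TGACGTCA, so the RefSeq promoter windows of GRCh38.p14 (250 bases before to 50 after a gene start) were searched for both and for the AP-1 letters TGANTCA. Each of these motifs reads the same on both strands, so one search covers both, and TGACGTCA does not contain TGANTCA. Of the 14 immediate early genes that were lower, 13 had a window. Among them 2 held a CArG box (*EGR1* and *EGR2*), 3 held TGACGTCA (*DUSP1*, *MAFF* and *PPP1R15A*) and 0 held TGANTCA. Of all genes that passed the filter 10201 had a window, and 1.48%, 3.87% and 7.01% of these held the 3 motifs, while 3.01%, 3.76% and 13.5% of 133 lower genes and 1.01%, 3.03% and 7.07% of 99 higher genes did. A match describes the letters in the window only. The windows of *EGR1* and *EGR2*, which share the CArG box, of *DUSP1*, and of *DIO2*, a higher gene described below that held TGACGTCA in 1 of its 2 windows, are shown 5′ to 3′ with the motifs in capitals, so that the motifs of genes that moved down and up can be set side by side.

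*EGR1* (chr5:138465229-138465528, plus strand): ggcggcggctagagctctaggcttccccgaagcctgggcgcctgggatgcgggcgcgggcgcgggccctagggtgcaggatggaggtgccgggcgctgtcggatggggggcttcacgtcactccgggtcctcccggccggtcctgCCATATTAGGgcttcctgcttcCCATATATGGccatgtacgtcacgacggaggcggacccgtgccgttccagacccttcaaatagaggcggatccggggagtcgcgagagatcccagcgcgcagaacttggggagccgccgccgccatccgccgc

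*EGR2* (chr10:62816317-62816616, minus strand): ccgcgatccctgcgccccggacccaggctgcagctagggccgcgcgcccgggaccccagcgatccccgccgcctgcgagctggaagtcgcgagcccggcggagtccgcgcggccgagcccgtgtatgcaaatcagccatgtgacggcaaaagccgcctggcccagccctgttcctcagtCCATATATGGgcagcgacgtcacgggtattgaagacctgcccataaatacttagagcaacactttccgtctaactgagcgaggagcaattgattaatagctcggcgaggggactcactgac

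*DUSP1* (chr5:172771146-172771445, minus strand): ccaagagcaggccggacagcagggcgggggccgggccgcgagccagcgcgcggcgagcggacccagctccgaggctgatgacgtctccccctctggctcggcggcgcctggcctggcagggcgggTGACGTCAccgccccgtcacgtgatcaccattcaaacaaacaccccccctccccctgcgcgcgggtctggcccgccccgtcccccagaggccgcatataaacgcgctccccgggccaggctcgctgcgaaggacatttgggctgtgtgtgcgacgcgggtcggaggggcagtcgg

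*DIO2* (chr14:80212129-80212428, minus strand): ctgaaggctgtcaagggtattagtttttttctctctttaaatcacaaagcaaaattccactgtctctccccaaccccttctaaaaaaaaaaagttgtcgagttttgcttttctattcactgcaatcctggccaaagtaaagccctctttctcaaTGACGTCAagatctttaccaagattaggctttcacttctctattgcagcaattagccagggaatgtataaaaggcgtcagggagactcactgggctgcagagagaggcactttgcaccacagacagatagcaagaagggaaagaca

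The *EGR1* window held 2 CArG boxes, starting 105 and 83 bases before the gene start, and that of *EGR2* held 1, starting 71 bases before it. The TGACGTCA of *DUSP1* started 125 bases before the gene start and that of *DIO2* 96 bases before it. *EGR2* had 3 windows and *DIO2* 2, and those shown were picked for their CArG box or TGACGTCA. *DIO2* also held TGANTCA, in a window that is not shown.

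In the other lines these genes behaved in different ways. In MDA-MB-231 4 of the 14 were also 2-fold lower in both transfectants: *EGR1* (14586, 1947 and 548 counts), *EGR2* (57, 21 and 9), *FOS* (612, 209 and 119) and *PPP1R15A* (17858, 6404 and 3525), in a line where 0.865% of all genes met that rule. None of the 14 was in HCC1954 or OVCAR8. In HCC1954 *FOS* was higher in *SIVA-WT* and lower in *SIVA-D160N* (1.29 and -1.17), as was *FOSB* (3.37 and -0.66), and *EGR1* had ratios of 1.32 and 0.00. In OVCAR8 *EGR3* had too few counts, *FOSB* had ratios of -1.26 and -0.86, and the others lay within 0.36 of zero. The medians of the AP-1 and ERK output list were -0.40 and -0.73 in MDA-MB-231, 0.24 and 0.06 in HCC1954 and -0.01 and 0.09 in OVCAR8.

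**Figure D3:**
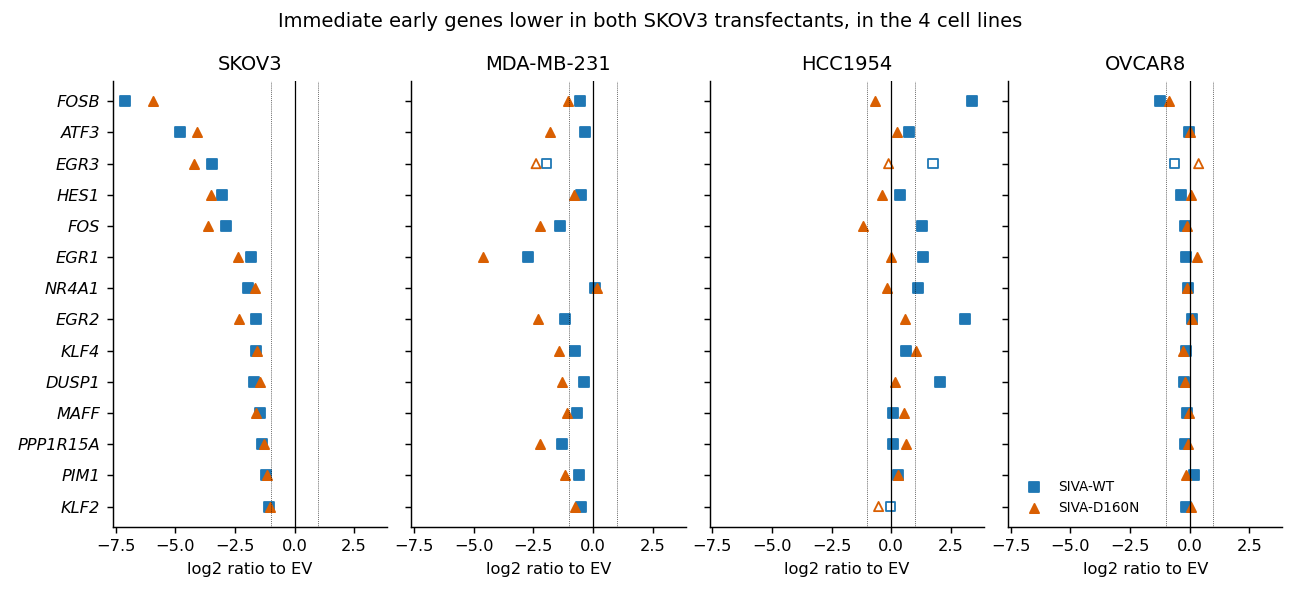
Log2 ratio to EV of *SIVA-WT* (square) and *SIVA-D160N* (triangle) for the 14 immediate early genes that were lower in both SKOV3 transfectants, in each of the 4 lines (1 library per condition, dotted lines at 2-fold, open symbols for genes under 50 counts in all 3 libraries of the line). Points lie left of zero throughout in SKOV3, mostly left in MDA-MB-231 and on both sides in HCC1954. In OVCAR8 they lie close to zero except those of *FOSB* (-1.26 and -0.86) and *EGR3* (open symbols, -0.64 and 0.38).

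*HES1*, counted above among the immediate early genes, is also a Notch target. It had 4568, 651 and 435 counts (-3.03 and -3.48), the largest difference of the Notch list, in which *LFNG*, a glycosyltransferase that modifies Notch receptors, was the 1 higher gene (139, 460 and 671 counts). The remaining 11 of 13 Notch genes that passed the filter, among them *JAG1*, *NOTCH1* and *NOTCH2*, did not meet the rule, and the list medians were -0.05 and -0.03. *HES1* was within 2-fold of EV in the other lines. In MDA-MB-231 it was lower in both transfectants (945, 587 and 500 counts, -0.50 and -0.79). Its ratios were 0.35 and -0.38 in HCC1954 and -0.36 and 0.07 in OVCAR8. Other genes among the 15 furthest below EV were *MAL2*, a protein of apical transport (930, 143 and 139 counts), *SEL1L3* (940, 268 and 258), the potassium channel gene *KCNQ3* (302, 54 and 76), *GPRC5C* (1422, 493 and 316), *RARRES3* (224, 77 and 61) and *TMCC3* (267, 95 and 61). *SLAIN1*, *SGPP2* and *GPRIN3* completed that group, each with at most 86 counts in a transfectant.

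Interferon-induced genes encode antiviral proteins such as the oligoadenylate synthetases, which activate RNase L on double-stranded RNA. Of 30 that passed the filter 3 were lower in both transfectants and 0 were higher, beside 1.62% and 1.09% over all genes. *OAS1* had 140, 27 and 20 counts (-2.50 and -2.78), *OAS2* 113, 38 and 32 (-1.73 and -1.85) and *IFI44L* 127, 33 and 25 (-2.09 and -2.35). All 3 were at low counts in SKOV3. The list as a whole was only slightly below EV, with medians of -0.27 and -0.49 and 23 and 26 of 30 genes negative. Over all genes the medians were 0.04 and 0.03, and the share of all genes with a negative ratio was not counted. The genes of antigen presentation had medians of -0.21 and -0.42 with 12 of 13 genes negative in each transfectant, and no member of the list was 2-fold lower in both. *HLA-B* had the ratios -0.80 and -1.23 and the immunoproteasome gene *PSMB9* -0.88 and -1.30. *IL1A*, the cytokine interleukin-1 alpha, was the only shared-change gene among 17 cytokine genes (128, 32 and 17 counts). In the integrated stress response *CHAC1*, which degrades glutathione (398, 214 and 104 counts), and *ATF3* were the 2 lower genes of 28, with list medians of -0.24 and -0.36.

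A further group of higher genes was placental and imprinted. The pregnancy-specific glycoproteins (PSG) and the beta subunits of chorionic gonadotropin (CGB) are products of the placental trophoblast, and both families lie in clusters of near-identical copies on chromosome 19, so the division of reads among family members is uncertain. This list was also set after the values had been seen. Of its 18 genes that passed the filter 12 were higher in both transfectants and 0 were lower, beside 1.09% and 1.62% over all genes. The list medians were 1.65 and 1.85. *PSG1* had 8, 203 and 282 counts (4.15 and 4.74), *PSG5* 26, 189 and 318 (2.56 and 3.42), *PSG4* 45, 255 and 427 (2.24 and 3.10) and *PSG9* 8, 40 and 94 (1.87 and 3.18). *PSG3* had 1 count in EV, 65 in *SIVA-WT* and 120 in *SIVA-D160N*, log2 ratios of 4.31 (3.27 to 11.13) and 5.29 (4.30 to 12.13), where the wide intervals come from the single count. *PSG7* (0, 18 and 31 counts), *PSG8* (0, 17 and 14) and *PSG11* (0, 8 and 12) lay under the count filter. Counts of every one of these PSG genes were thus lowest in EV, and the number of transcripts remained small.

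*CGB5* had 174, 586 and 484 counts (1.52 and 1.37), *CGB7* 45, 141 and 107 and *CGB* 10, 48 and 66, whereas *CGB8* (664, 1342 and 1191) stayed within 2-fold (0.79 and 0.74), and *CGA*, which encodes the alpha subunit that the hormone also needs, had 0 counts in all 3 libraries. *H19*, a maternally expressed imprinted non-coding RNA, had 47, 396 and 310 counts (2.81 and 2.58), and its neighbour *IGF2* had at most 2. *PEG10*, a paternally expressed gene of retrotransposon origin, had 143, 575 and 967 counts (1.78 and 2.65), *PLAC1* had 64, 200 and 204 and *DIRAS3*, an imprinted RAS-related gene, had 12, 59 and 64. In the other 3 lines 9 to 12 genes of the list passed the filter, none was 2-fold higher in both transfectants, and the medians lay between -0.08 and 0.29.

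Collagens and other matrix proteins are secreted mainly by mesenchymal cells and give tissues their scaffold. Of 44 matrix genes that passed the filter 8 were higher and 2 were lower in both transfectants, beside 1.09% and 1.62% over all genes. The list medians were 0.21 and 0.39. *COL1A1*, the alpha 1 chain of type I collagen (chromosome 17, 50184101 to 50201631), had 900, 18174 and 20454 counts, log2 ratios of 4.11 (4.02 to 4.22) and 4.41 (4.31 to 4.51), or 17.3-fold and 21.2-fold. Its partner chain *COL1A2* had 452, 1313 and 960 counts (1.32 and 0.99), just short of 2-fold in *SIVA-D160N*, and the type III chain *COL3A1* had 24, 454 and 171 (3.92 and 2.64). *COL1A1* and *COL1A2* were the only 2 of the 12 markers of blood, endothelium and fibroblasts that passed the filter, and *DCN* (5, 8 and 15), *LUM* (28, 28 and 23) and *PDGFRA* (16, 9 and 7) remained low. *PDGFRB*, a receptor of mesenchymal and mural cells, had 3, 61 and 65 counts (3.47, 2.51 to 6.44, and 3.67, 2.73 to 6.66). *POSTN*, the matricellular protein periostin, had 4425, 15177 and 15227 counts (1.56 and 1.69), and *THBS1*, *MATN2*, *HSPG2*, *HAPLN1* and *COL27A1* were the other higher genes. *COL4A4* (551, 166 and 191) and *TNC*, the glycoprotein tenascin C (641, 348 and 264), were lower. *FN1* (0.21 and 0.37), *VIM* (0.06 and -0.07) and *COL5A2* (0.14 and -0.08) lay close to EV.

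TGF-beta is the best known inducer of collagen genes. Of 24 genes of TGF-beta, BMP and activin signaling 5 were higher and 0 were lower in both transfectants, beside 1.09% and 1.62% over all genes, although the list medians were -0.04 and 0.17. Among them were the ligands *TGFB2* (74, 247 and 387 counts), *BMP4* (22, 67 and 66) and *GDF6* (61, 145 and 325) and the inhibitor of differentiation *ID3* (197, 494 and 546). *SMAD7* (-0.15 and -0.09), a feedback target of the pathway, and *TGFBI* (-0.10 and -0.17) were near EV. *LTBP2*, a matrix protein that resembles latent TGF-beta binding proteins, was lower mainly in *SIVA-D160N* (-0.93 and -2.07). *SMAD7*, *TGFBI* and *LTBP2* were chosen after their values were seen, and the activity of the pathway was not tested. Among matrix proteases and their inhibitors 3 genes, including *ADAM12* and *ADAMTS5*, were higher and *MMP1* was lower, of 29 genes with medians of 0.06 and 0.05. None of the 15 genes of epithelial-mesenchymal transition met the rule (medians -0.10 and -0.11), and none of 23 integrins and laminins did (-0.07 and -0.20).

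Contractile and actin-binding genes, a list set after the values were seen, had 11 higher and 0 lower genes of 30. The shares over all genes were 1.09% and 1.62%, and the list medians were 0.64 and 0.92. *CNN1*, the smooth muscle calponin, had 7, 56 and 110 counts, *MYL9* 7, 44 and 64, *LMCD1* 144, 563 and 671 and *SYNPO*, which encodes synaptopodin, 1001, 2638 and 2653. *FLNC*, the muscle filamin, had 1, 22 and 82 counts (2.84, 1.61 to 9.61, and 4.76, 3.74 to 11.58). Several abundant genes of the list were above EV by less than 2-fold in *SIVA-WT*, among them *TAGLN* (0.64 and 1.37), *TPM1* (0.84 and 1.37), *MYH9* (0.31 and 0.71) and *ACTN1* (0.41 and 0.51), and *ACTA2* had only 43, 32 and 22 counts. In HCC1954 the list had medians of 0.33 and 0.44 with 1 gene 2-fold higher in both, and in MDA-MB-231 and OVCAR8 the medians lay between -0.04 and 0.03.

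Of 19 heat shock genes, another list set after the values were seen, 4 were higher in both transfectants and 0 lower. The shares over all genes were 1.09% and 1.62%. The list medians were 0.56 and 0.66, and 18 of 19 genes lay above EV in *SIVA-WT* and 19 of 19 in *SIVA-D160N*. The medians over all genes were 0.04 and 0.03, and the share of all genes above EV was not counted. The 4 higher genes were the small heat shock proteins *CRYAB* (38, 281 and 560 counts) and *HSPB8* (373, 937 and 1068) and the inducible HSP70 genes *HSPA1A* (1276, 4003 and 3782) and *HSPA1B* (961, 3146 and 2644). *HSPA1A* and *HSPA1B* encode the same protein and their reads cannot be divided with certainty. *HSPB1* had ratios of 0.88 and 1.03 and *HSPA8* of 0.70 and 0.92. The list lay above EV in MDA-MB-231 as well (0.38 and 0.61) and in HCC1954 (0.28 and 0.49), and below it in OVCAR8 (-0.20 and -0.19).

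*DIO2* encodes the deiodinase that turns thyroxine into the active hormone T3. It had 583, 3784 and 5249 counts in SKOV3 (chromosome 14, 80197526 to 80231057), log2 ratios of 2.48 (2.35 to 2.61) and 3.07 (2.95 to 3.20). The receptor gene *THRB* had 1069, 2024 and 2715 counts (0.70 and 1.25), *THRA* was near EV (-0.19 and -0.46), and the inactivating *DIO3* had 0 counts in all 3 libraries. *KLF9*, a known target of thyroid hormone, was lower (110, 57 and 31 counts), so the 5 genes of this list that passed the filter held 1 higher and 1 lower gene. Of 38 receptor tyrosine kinase and ligand genes 4 were higher (*PDGFRB*, *IGFBP3* and *IGFBP5* among them) and 2 lower (*KDR*, the VEGF receptor, and *FGFBP1*). The shares over all genes were 1.09% and 1.62%. *IGFBP3*, which binds insulin-like growth factors in the medium, had 7491, 30871 and 39368 counts (1.82 and 2.30). *ERBB2* itself had a log2 ratio of -0.44 in *SIVA-WT* and of -1.02 in *SIVA-D160N*. Its neighbour *GRB7* had 2479, 1812 and 815 counts (-0.67 and -1.70), and *PPP1R1B*, which lies beside both on chromosome 17, was the only shared-change gene of the 13 genes around *ERBB2* that passed the filter. The medians of these 13 genes, a list set after the values were seen, were -0.26 and -0.75, with 9 and 11 genes negative. Medians over all genes were 0.04 and 0.03, and the share of all genes below EV was not counted.

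Detoxification genes of the NRF2 list split evenly, with 3 of 26 higher (*HMOX1*, *ALDH1A1*, *UGT1A6*) and 3 lower (*ALDH1A3*, *ABCB1*, *CYP1B1*). For this and the lists that follow, the shares over all genes were 1.09% higher and 1.62% lower. *HMOX1*, heme oxygenase 1, had 877, 3421 and 3950 counts (1.74 and 2.07), whereas *ABCB1*, the multidrug transporter, had 60, 13 and 23. *UGT1A6* shares its last exons with the other UGT1A genes, so its reads cannot be assigned to it with certainty. The neural adhesion list had 3 higher genes (*TENM2*, *FLRT2*, *PCDH9*) and 4 lower ones (*FLRT3*, *SEMA3A*, *LRRN1*, *NLGN4X*) of 27, and *TENM2*, the teneurin gene, moved from 50 counts in EV to 420 and 860 in the transfectants. Both keratins among the higher genes, *KRT17* and *KRT81*, belonged to a list of 9 with medians of 0.42 and 0.63. *CDH16*, a kidney-type cadherin, had 2433, 6113 and 5965 counts, and was the 1 shared-change gene of 21 epithelial junction genes. *CDKN1A*, the cell cycle inhibitor p21, had 526, 303 and 185 counts, next to *MDM2* with ratios of -0.13 and -0.22 and *BAX* with 0.24 and 0.24.

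Apoptosis genes were close to EV. Of 28 SIVA partners and apoptosis genes that passed the filter *SIVA1* was the only shared-change gene, and the medians were 0.00 and -0.07. *CD27*, the receptor for which SIVA was first described, had at most 1 count, while its ligand gene *CD70* had 8799, 10861 and 8090. *BCL2L1*, which encodes BCL-XL, had ratios of -0.05 and -0.08, and *XIAP* of -0.10 and -0.28. *MCL1* had -0.63 and -0.94 and *PMAIP1* (NOXA) -0.68 and -0.75, both within 2-fold. The 38 proliferation genes held no shared-change gene (medians 0.13 and 0.24), nor did 31 genes of sterol and fatty acid synthesis, 27 of glycolysis and hypoxia, 19 of WNT signaling or 10 of complement. The HOX and lineage list had *RUNX3* higher and *ESR1*, the estrogen receptor gene, lower, of 35 genes, and the Hippo list had *TGFB2* and *IGFBP3* higher and *NT5E* lower, of 27.

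**Figure D4:**
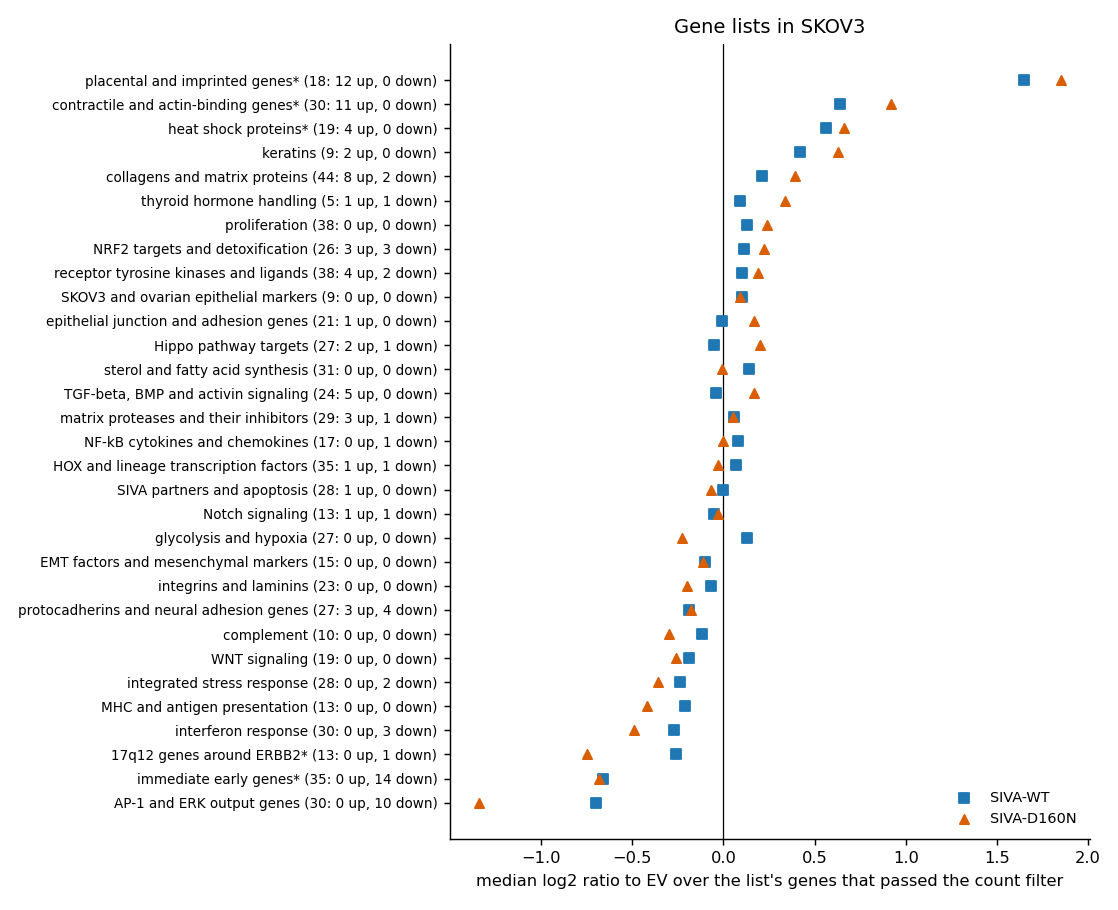
Median log2 ratio to EV of *SIVA-WT* (square) and *SIVA-D160N* (triangle) in SKOV3 for the gene lists described here with at least 5 genes past the count filter. Labels give that number and how many genes were 2-fold higher or lower in both transfectants, and an asterisk marks lists set after the values were seen. The other lists were chosen with earlier results of these data known. Of the lists drawn, placental and imprinted genes lie furthest right (1.65 and 1.85) and AP-1 and ERK output genes furthest left (-0.70 and -1.34).

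The shared-change genes were then followed in the other 3 lines, whose ratios use their own EV libraries. The same rule gave 46 higher (0.355%) and 112 lower genes (0.865%) in MDA-MB-231, 112 (0.821%) and 43 (0.315%) in HCC1954 and 45 (0.333%) and 5 (0.0370%) in OVCAR8. Most SKOV3 genes were not among them. Of the 145 higher genes 12 met the rule in the same direction in at least 1 other line, and of the 216 lower genes 9 did. *SIVA1*, the transfected gene, met it in all 3 lines and was the only gene to do so in more than 1. Expression set a limit here, since 40 higher and 49 lower genes had under 50 counts in all libraries of the other 3 lines.

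In HCC1954, 76 higher genes passed the count filter and 12 of them (15.8%) were also 2-fold higher in both transfectants, beside 0.821% of all genes there. The 12 are 10.7% of the 112 higher genes of that line. Genes in this and the next paragraph were named for their overlap, after their values had been seen. Besides *SIVA1* they included *DIO2* (1478, 4342 and 5917 counts in HCC1954), *ROS1*, a receptor tyrosine kinase gene (454, 1281 and 1607), *IL7R*, the interleukin-7 receptor (783, 1924 and 3347), *OXTR*, the oxytocin receptor (106, 246 and 281), *TENM2* (30, 136 and 85), *ALPK2*, *CCBE1*, *CYP24A1*, which inactivates vitamin D, and *TRPC4*. In SKOV3 the same genes had 407, 1022 and 915 counts (*ROS1*), 29, 143 and 320 (*IL7R*) and 247, 590 and 789 (*OXTR*). *CCBE1*, a lymphangiogenic matrix protein, was well expressed in SKOV3 (2877, 6755 and 8455) but had only 11, 80 and 51 counts in HCC1954. The EV library of HCC1954 is the one without *SIVA1* counts. When that line was left out, the only higher gene left with the rule met in another line was *SIVA1*. *TENM2* missed the rule by a little in OVCAR8 (1777, 4915 and 3603 counts, log2 ratios of 1.41 and 0.95). Of the lower genes 135 passed the filter in HCC1954 and 3 were lower there too (2.22%): *DMBT1* (3088, 1451 and 146 counts), *IFI44L* (1735, 551 and 149) and *OAS2* (3008, 1416 and 345). More of the 135, namely 5, met the rule there in the opposite direction. Over all genes of HCC1954 0.315% were lower and 0.821% higher. In HCC1954 the interferon list as a whole had 8 lower genes of 36.

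In MDA-MB-231, 121 lower genes passed the filter and 6 of them (4.96%) were lower in both transfectants, beside 0.865% of all genes there. The 6 are 5.36% of the 112 lower genes of that line. Besides *EGR1*, *EGR2*, *FOS* and *PPP1R15A* they were *IL1A* (1086, 154 and 101 counts) and *OSCAR* (2469, 692 and 321), an immunoglobulin-like receptor. In the opposite direction, 1 of the 121 lower genes, *NOV*, was 2-fold higher in both. Of the 61 higher genes that passed there *SIVA1* alone was higher in both. In OVCAR8, the other ovarian line, 81 higher genes passed and *SIVA1* alone was higher in both. None of 104 lower genes was lower in both there, and 1 of them, *IL1A*, was higher in both. Medians of the mean ratio differed by line. For the higher genes they were 0.10 in MDA-MB-231, 0.20 in HCC1954 and -0.03 in OVCAR8, for the lower genes -0.25, 0.02 and 0.11, and over all genes -0.02 in each line. Both ratios of the higher genes were positive for 50.8%, 46.1% and 30.9% of those that passed, beside 38.5%, 31.4% and 37.3% of all genes, and both ratios of the lower genes were negative for 57.9%, 34.1% and 21.2%, beside 45.2%, 34.7% and 41.5%. In OVCAR8 the shared-change genes thus held a smaller share of same-direction genes than all genes did. These are descriptions of 1 library per condition.

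**Figure D5:**
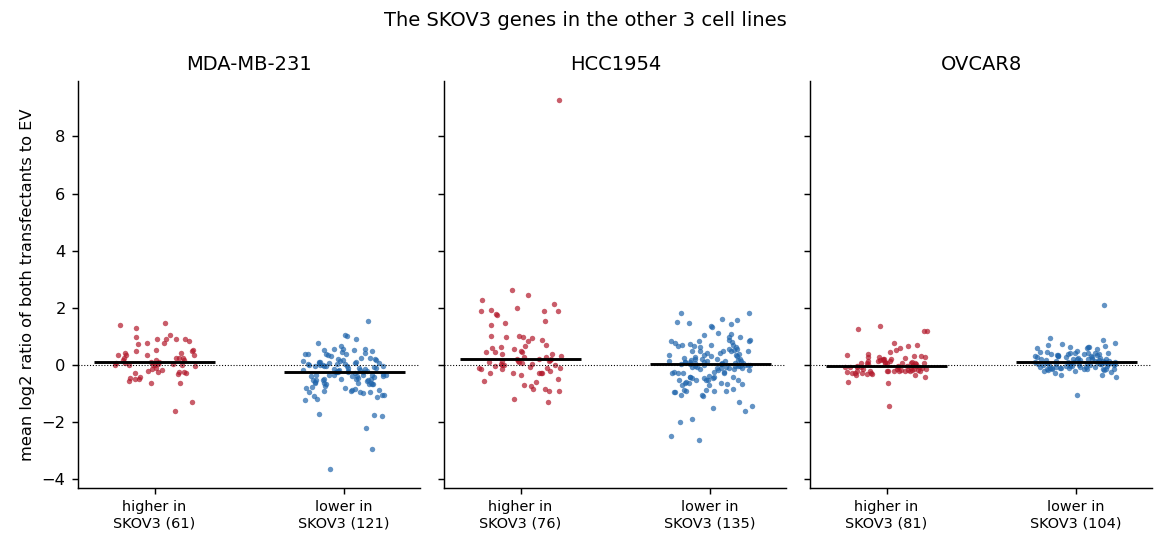
Mean log2 ratio of both transfectants to EV in MDA-MB-231, HCC1954 and OVCAR8 for the SKOV3 higher (red) and lower (blue) genes that passed the count filter in that line, 1 point per gene, with the median as a black line. Medians lie between -0.25 and 0.20, and the single point above 9 in HCC1954 is *SIVA1*, which had 0 counts in that line's EV library.

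The other 3 lines also allowed a test that did not use SKOV3, with the lines as replicates. Both transfectants of a line entered it, and they share that line's EV library. With edgeR's quasi-likelihood method and a term for the line, 0 of 18313 genes (0%) differed between transfectants and EV at a Benjamini-Hochberg adjusted p under 0.05, and the smallest adjusted p was 0.323. DESeq2 called 140 genes and limma-voom 0. At an unadjusted p under 0.05 892 genes were higher (4.87%) and 908 lower (4.96%). Of the 145 SKOV3 higher genes 117 were tested, and 12 of these (10.3%) had an unadjusted p under 0.05 in the same direction and 4 in the opposite one. Of the 216 lower genes 189 were tested, with 20 (10.6%) in the same and 9 in the opposite direction. These shares depended on the settings. Without MDA-MB-231 the lower genes had 13 in the same and 19 in the opposite direction, and with DESeq2 the shares in the same direction were 5.13% of the higher and 5.82% of the lower genes. No SKOV3 gene passed the adjusted threshold of the edgeR test. When all genes with at least 1 count were tested, edgeR called 5 higher and 7 lower SKOV3 genes, 1 of each in the opposite direction, with *DIO2*, *ROS1*, *TENM2* and *SIVA1* among the former and *OAS2*, *IFI44L* and *PPP1R1B* among the latter. Without HCC1954 it called *SIVA1*. *DIO2* and the lower gene *PPP1R1B* came nearest, both with an edgeR adjusted p of 0.323. Their log2 fold changes over the 3 lines were 1.75 ± 0.24 (SE) and -1.91 ± 0.20. HCC1954 carried these values, with ratios of 1.51 and 2.25 for *DIO2* and of -0.75 and -3.08 for *PPP1R1B* in *SIVA-WT* and *SIVA-D160N*. Their SE is therefore not a spread between 3 lines. *DIO2* had only 3, 4 and 3 counts in MDA-MB-231 and 5, 12 and 10 in OVCAR8, and *PPP1R1B* had 0 counts in every library of those lines. DESeq2 called *DIO2* as the only SKOV3 gene. Among the genes with an edgeR adjusted p of 0.406 were *TENM2* (1.33 ± 0.29) and *ROS1* (1.65 ± 0.33) on the higher side. *OAS2* (-1.58 ± 0.35) was among them on the lower side. *ROS1* had 0 counts in MDA-MB-231 and 2, 1 and 1 in OVCAR8, and *OAS2* had 8, 11 and 8 and 1, 2 and 0, so HCC1954 alone carried both values. *EGR1* (-1.20 ± 0.81) and *FOS* (-0.65 ± 0.43) varied more between the lines, with edgeR adjusted p of 0.638 and 0.631.

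Some shared-change genes were neighbours in the genome, by the positions that RefSeq gives for GRCh38.p14 and with gaps of at most 1 Mb. *PSG3*, *PSG1*, *PSG5*, *PSG4*, *PSG9* and *LYPD5* lay together on chromosome 19 between 42721642 and 43820634, where 18 genes passed the filter and the medians were 0.21 and 0.24, so that the higher ratios belonged to these 6 genes and not to the span as a whole. *CGB*, *CGB5* and *CGB7* lay between 49022869 and 49057749 on the same chromosome. *FGB* (12, 184 and 220 counts) and *FGA* (8, 47 and 94), 2 chains of fibrinogen, were neighbours on chromosome 4, and *POSTN* and *TRPC4* were neighbours on chromosome 13. Lower neighbours included *OAS1* and *OAS2* on chromosome 12 and *SAMD12*, *MAL2* and *NOV* on chromosome 8. By chromosome, the share of higher genes ran from 0.419% on chromosome 4 to 2.11% on chromosome 18, and the share of lower genes from 0.534% on chromosome 17 to 3.77% on chromosome 4, where 18 of 477 genes were lower and the median ratios were -0.02 and -0.03. No chromosome had a median ratio beyond 0.16 in either direction.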

How the data were processed

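RNA sequencing counts of the 3 SKOV3 libraries were analysed together with those of 9 libraries of MDA-MB-231, HCC1954 and OVCAR8. The authors prepared stranded mRNA libraries (TruSeq), aligned the reads to GRCh38 and deposited gene counts without normalization, and per the labels' processing notes FastQC, STAR 2.5.3a and edgeR were used. The annotation release is not given in the sources used here. For 34525 genes the deposited data also held CPM, a signal the authors made by dividing counts by an adjusted library size, and 1 alternative used it. Column names gave the library of every column (0 without a sample).

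The counts were scaled by TMM over the 12 libraries in R 4.3.3 with edgeR 4.0.16, and log2 ratios to EV within a line used a prior count of 2. Genes needed at least 50 counts in 1 of the 3 libraries of a line. Intervals of ratios are 95% Clopper-Pearson intervals of 2 counts. Reads are not independent molecules, so intervals and the limit of 3 counts for a gene without counts cover counting error only. Because SKOV3 has 1 library per condition, its ratios were not tested. The other 3 lines entered a quasi-likelihood fit of edgeR (glmQLFit and glmQLFTest, filterByExpr by condition) with a term for the line, and adjusted over 18313 genes. The p-values measure the spread left after the terms for line and condition, with 1 library per line and condition. Both transfectants of a line share its EV library and both enter that spread, so it is not a spread between lines alone. DESeq2 1.42.0 and limma-voom (limma 3.58.1) served as alternatives. Python 3.11.15 with matplotlib 3.10.9 made the figures. The scripts were tested on simulated data.

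The line is the shared source of its 3 libraries and was the replicate block. Deviations from condition means correlated at 0.929 to 0.968 within a line and at -0.431 to -0.192 between different lines and conditions. Such deviations hold mainly the differences between lines, so these values describe the libraries and cannot check the choice of block.

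Gene lists (28, and 5 added after the values were seen) and shared-change genes were chosen with earlier results of these data known. Genes were named when they were *SIVA1*, among the 15 furthest from EV in each direction with a symbol and at least 200 counts, in a list and 2-fold changed in both transfectants, or shared with at least 2 other lines or called there. Other genes named, such as list members within 2-fold of EV or genes shared with 1 other line, were chosen after their values were seen. Alternatives were other scalings, count filters, prior counts, fold thresholds, tests and lines left out. The values of some genes are not reported here, although they are part of the counts. Promoter windows came from RefSeq (GRCh38.p14).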

Additional observations from a re-analysis of the deposited data

Results flagged for a closer look

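A total of 7 shared lower genes of SKOV3 were at least 2-fold higher in both transfectants of another line. These differences between lines were not tested, and each rests on 1 library per condition. Toward MDA-MB-231 the gene was *NOV*, a matricellular protein of the CCN family. It had 848, 387 and 364 counts in EV, *SIVA-WT* and *SIVA-D160N* of SKOV3 (log2 ratio in *SIVA-WT* -1.35) and 19, 49 and 59 in MDA-MB-231 (1.45).

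Against HCC1954 there were 5 such genes. The carboxypeptidase M gene *CPM* had 221, 99 and 102 counts in SKOV3 (-1.36) and 33, 99 and 77 in HCC1954 (1.48). *RAET1E*, a ligand of the NKG2D receptor, had 140, 72 and 59 (-1.15) against 30, 77 and 87 (1.26). *C8orf4* had 103, 4 and 7 (-4.29) against 278, 1381 and 607 (2.26), and *KCNQ3* had 302, 54 and 76 (-2.65) against 126, 287 and 350 (1.13). The transcript *RP11-114H23.1* had 90, 34 and 22 (-1.56) against 24, 63 and 56 (1.27). The EV library of HCC1954 had 0 *SIVA1* counts, and the part of that library in these 5 differences was not tested.

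*IL1A* differed between the ovarian lines. It had 128, 32 and 17 counts in SKOV3 (-2.14) and 75, 315 and 365 in OVCAR8 (1.98), while in MDA-MB-231 it was lower as in SKOV3 (1086, 154 and 101 counts).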

How the results depend on the processing

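Ratios of the genes named by the rule kept their direction under all alternatives run, and the other ratios in the text were not recomputed. Of 1120 alternative values of these ratios 1100 moved by less than their counting interval and 20 by more, all of them with scaling by total counts, which shifts the median of all genes by -0.08 and -0.09. Of 198 alternative list medians 175 moved little and 23 more. With total counts 3 medians near 0 changed sign: matrix proteases (-0.01 and -0.04) and, in *SIVA-WT*, HOX and lineage factors (-0.01). Each SKOV3 value rests on 1 library per condition, no library was left out there, and depth limits mainly the genes under 200 counts.

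The numbers of higher and lower SKOV3 genes (145 and 216) became 451 and 1068 with no filter beyond 1 count, 80 and 101 at 200 counts or more, 356 and 623 at 1.5-fold, 63 and 49 at 3-fold, and 86 and 92 where both counting intervals had to lie beyond 2-fold. With total counts they were 127 and 253. Genes that met the rule in another line (12 and 9) became 41 and 68 with no filter, 6 and 3 at 200 counts, 51 and 65 at 1.5-fold, 3 and 3 at 3-fold, and 1 higher gene with HCC1954 left out, an alternative chosen after seeing the data, as was a count at unadjusted p (1800 genes for both transfectants). Shared-change genes 2-fold apart between transfectants became 89 with no filter and 18 at 200 counts.

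In the other 3 lines edgeR called 0 genes in each contrast. For both transfectants, *SIVA-WT* and *SIVA-D160N*, DESeq2 called 140, 6 and 379, and edgeR on all genes with at least 1 count called 118, 8 and 390. Limma-voom called 32 in *SIVA-D160N*. Leaving out 1 line gave 0 to 3 calls for both transfectants (3 without HCC1954, *SIVA1* among them, and 1 without OVCAR8), 0 for *SIVA-WT* and 0 to 3 for *SIVA-D160N*. With no replicate block 0 genes were called in each contrast. The cause was not tested.

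List medians that moved, as *SIVA-WT* and *SIVA-D160N*, with total counts were 0.03 and 0.00 (ovarian markers), -0.13 and 0.11 (Hippo targets), -0.15 and -0.29 (integrins and laminins), -0.18 and -0.20 (epithelial-mesenchymal transition), 0.06 and -0.10 (sterol synthesis), 0.05 and 0.15 (proliferation), 0.48 and 0.57 (heat shock), -0.33 and -0.84 (genes around *ERBB2*) and 0.13 in *SIVA-D160N* (NRF2 targets). At 200 counts they were 0.39 and 0.79 (thyroid hormone), 0.37 and 0.62 (contractile genes), and in *SIVA-D160N* -1.10 (AP-1 and ERK output) and -0.14 (integrins and laminins).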
